A study of Oreochromis niloticus with 6 samples.

Results

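Apolipoproteins are the proteins that coat the fat-carrying particles of blood plasma. Some, such as apolipoprotein B, form the frame on which the liver and intestine assemble triglyceride-rich particles, and others attach to finished particles, hold high-density lipoprotein together, bind cell receptors, or activate and inhibit the enzymes that exchange and break down the lipid. In vertebrates the liver is a main source of them. The genes described here were chosen by name in the mRNA table: names of the apolipoprotein A1, A2, A4, B, C1, C2, C4, E, F, H and M kinds, with or without a fish duplicate letter. This found 7 of 26490 gene IDs, holding 12 transcripts. They are apoa1b, APOH, apof, apoba, 2 gene IDs that both carry the name apoa4a, and 1 gene ID that carries both apoa2 and apoeb. None of the 7 carries a name of the C or M kinds, so those kinds could not be analysed here. The other kinds are represented only by the copies named here, which need not be all copies in the genome.

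The samples were livers of juvenile male wild-type GIFT fish, a farmed strain of Nile tilapia (Oreochromis niloticus). HFD fish were fed 18.5% lipid and NFD fish 8% lipid to satiation over 56 days, and each diet has 3 libraries. The series was set up to find how a fatty diet disturbs hepatic lipid handling. RNA from 3 samples per group was mixed, per the labels' protocols. Whether libraries of a diet share a mixture is not stated, so a p-value measures only the spread between libraries, which may be technical. In whole liver, fewer cells of a type and less RNA per cell cannot be told apart.

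All values are FPKM, fragments scaled to transcript length and to library size, so levels can be compared between genes. Summed FPKM of the mRNA table ran from 141024 to 170847 per library, and depth in reads is unknown. Of 14 hepatocyte markers, 8 were found, and all 8 had values in every library. Their summed level was 1557 to 2073 FPKM in HFD and 2210 to 5952 FPKM in NFD. Without the fibrinogen chain fgb it was 1555 to 2072 FPKM in HFD and 1994 to 2209 FPKM in NFD. Exocrine pancreas markers, 10 of 18 found, summed to 4609 to 17786 FPKM in HFD and 3921 to 16538 FPKM in NFD. The other lists were far lower. Summed levels were at most 37.9 FPKM for erythrocyte markers (3 of 8 found) and 39.5 for macrophage markers (4 of 8). They were at most 86.0 for bile duct (4 of 5), 7.61 for intestine (3 of 7) and 0.758 for adipocyte markers (2 of 5). Alas2 and lepa were listed at 0 throughout. The globins hbaa1, hbba1, hbae and hbbe and the adipocyte markers plin1, adipoq and fabp4 were not found by name. These low sums therefore do not measure how much blood or fat tissue the samples held. What part pancreas RNA has in the FPKM below was not tested, except where the share is given without it.

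The apoa2/apoeb gene ID was among the most abundant of the liver. Its level ranked between 7 and 15 of 26490 gene IDs in every library. By mean FPKM it was at rank 10, below the pancreatic trypsinogen prss1 and above the elastase ela2 and the glycolytic enzyme gapdh. It made up 70.5% to 91.4% of the summed FPKM of all 7 gene IDs. APOH followed at rank 89 by mean, next to the translationally controlled protein tpt1 and the chaperone hspa8. The mean levels of apoa1b, at rank 206, and apof, at rank 229, were close to those of the sugar-phosphate enzyme taldo1 and the glycogen synthase gys2. For apof this mean joins unlike libraries: it ranked 9037 in HFD 3 and 9822 in NFD 3, and between 161 and 212 in the 4 others. The remaining 3 gene IDs had mean levels of 1.22 FPKM (apoa4a, MSTRG.13420), 0.637 (apoba) and 0.197 (apoa4a, ENSONIG00000013741).

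This order of levels held in all libraries only at its top. The apoa2/apoeb level exceeded that of APOH in 6 of 6 libraries, by between 3.2 and 44.2-fold. APOH exceeded apoa1b in 5 of 6, the exception being NFD 2. Apoa1b and apof were in either order in 3 libraries each, with a ratio of apoa1b to apof from 0.60 to 201. Their order by mean therefore did not hold across the libraries. Apof exceeded the first apoa4a gene ID in 4 of 6, and that gene ID exceeded apoba in 4 of 6. Apoba exceeded the second apoa4a gene ID in 5 of 6.

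**Figure D1:**
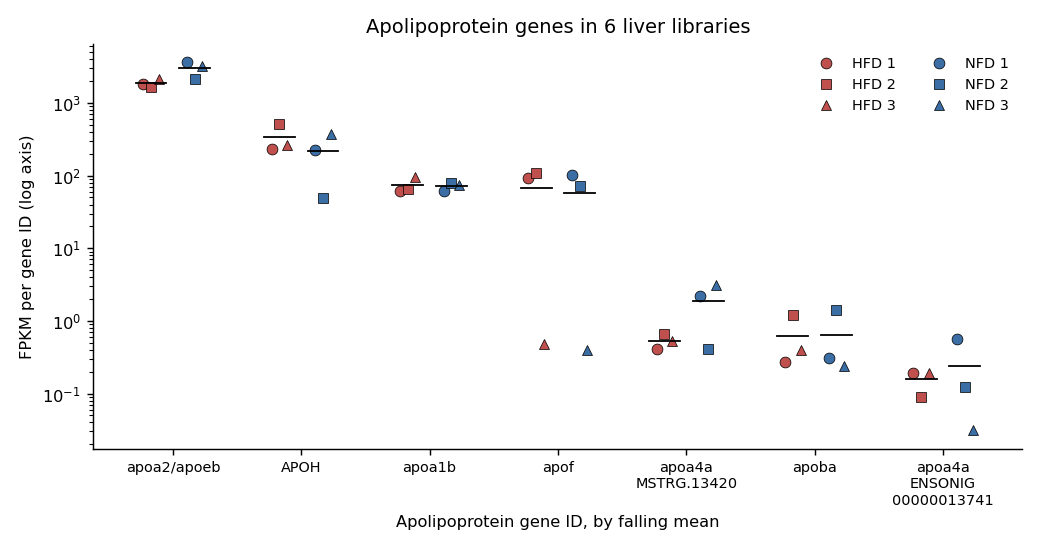
FPKM per gene ID (log axis) for the 7 apolipoprotein gene IDs, with the 3 HFD libraries in red on the left and the 3 NFD libraries in blue on the right of each pair; points are libraries and bars are means. Apoa2/apoeb is at 1667 FPKM or more in each library, while apof splits into 4 libraries at 72.9 FPKM or more and 2 libraries below 0.5 FPKM.

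Together the 7 gene IDs held 1.59%, 1.65% and 1.46% of the summed FPKM of the mRNA table in the HFD libraries, against 2.48%, 1.40% and 2.55% in NFD 1, 2 and 3. The mean share was 1.57% ± 0.0954 in HFD and 2.15% ± 0.643 in NFD (mean ± SD of 3 libraries), a difference of -0.58 percentage points. NFD 1 and NFD 3 were above every HFD library and NFD 2 was below every one, so the diets overlapped. With the exocrine pancreas markers taken out of the total, the shares were 1.67% ± 0.0357 in HFD and 2.29% ± 0.709 in NFD. The total also includes small RNAs with Rfam names, 426 rows of the mRNA table. Without these rows the shares were 2.05% ± 0.259 in HFD and 2.73% ± 0.683 in NFD. NFD 2, at 1.94%, was then above HFD 3, at 1.84%, and no longer below every HFD library. The 6 gene IDs other than apoa2/apoeb held 0.324% ± 0.144 in HFD and 0.226% ± 0.0979 in NFD.

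Of the 7 gene IDs, 5 had at least 0.5 FPKM in at least 3 libraries and were tested with limma on log2(FPKM + 0.5) among 9204 genes. Of these 5, none passed at an adjusted p under 0.05, and none had an unadjusted p under 0.05. Over all genes the share was 0% by adjusted p (0 of 9204) and 6.02% by unadjusted p (554 of 9204). The diets' libraries did not overlap for 1 of the 5, where the share over all genes was 11.6%. In HFD 3 gene IDs were higher and 2 lower; their median log2 fold change was 0.03, against a median of 0.0031 over all genes tested, of which 49.6% were lower. All fold changes come from log2(FPKM + 0.5), so those of low genes are understated.

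**Figure D2:**
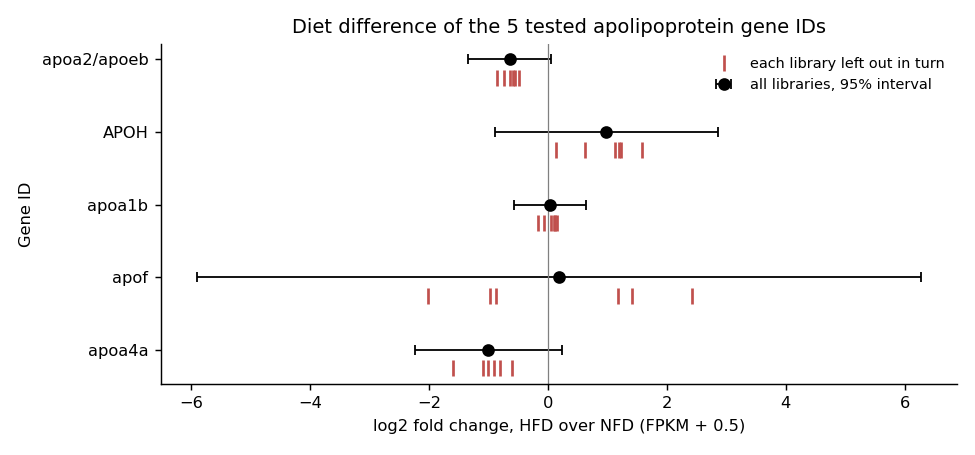
Log2 fold change of HFD over NFD for the 5 tested gene IDs, with the 95% interval from limma (black) and the value with each library left out in turn (red ticks). Each interval crosses 0, and that of apof, from -5.90 to 6.28, is the widest of the 5.

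Apoa2 is a structural protein of high-density lipoprotein in mammals, and apoeb is a fish copy of the receptor ligand apolipoprotein E, through which remnant particles are taken up. Their shared gene ID (MSTRG.18313) was at 1851, 1667 and 2137 FPKM in HFD 1, 2 and 3, against 3622, 2171 and 3186 FPKM in NFD 1, 2 and 3. All 3 HFD libraries were below all 3 NFD libraries, although NFD 2 was only just above HFD 3. The means were 1885 ± 237 FPKM in HFD and 2993 ± 744 FPKM in NFD (SD of 3 libraries per diet). The log2 fold change of -0.64 ± 0.29 SE did not pass (limma, unadjusted p = 0.0659, adjusted p = 0.854), with a 95% interval from -1.34 to 0.06. Its unadjusted p was 0.0329 in limma without NFD replicate 2, where the log2 fold change was -0.86, 0.0388 without the variance trend and 0.0466 with the filter on mean FPKM. It was 0.209 with no filter, 0.224 with quantile normalization, where the log2 fold change was -0.44, and 0.158 without NFD replicate 1, where it was -0.49. Adjusted p-values for this gene ID in limma lay between 0.752 and 1.000 over the alternatives.

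Almost all of that level came from a single apoa2 transcript. ENSONIT00000020362 held between 89.3% and 99.9% of the gene ID's FPKM. It was at 1849, 1580 and 2065 FPKM in HFD 1, 2 and 3, against 3307, 2084 and 2845 FPKM in NFD 1, 2 and 3, again without overlap. Tested alone among 9361 transcripts, it had a log2 fold change of -0.57 ± 0.28 SE (limma, unadjusted p = 0.0886, adjusted p = 0.878). The other apoa2 transcript, ENSONIT00000020361, was at 2.58 ± 0.484 FPKM in HFD and 3.29 ± 1.33 FPKM in NFD.

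The apoeb transcript was the more variable constituent of the gene ID. ENSONIT00000020360 was at 0.0866, 84.8 and 69.0 FPKM in HFD 1, 2 and 3, against 312, 84.9 and 336 FPKM in NFD 1, 2 and 3. HFD 1 was 3884-fold below NFD 3, whereas the apoa2 transcript of the same gene ID varied 2.09-fold over the 6 libraries. The diets did not overlap, but HFD 2 and NFD 2 were nearly equal. Alone it had a log2 fold change of -3.78 ± 1.96 SE and a 95% interval from -8.53 to 0.97 (limma, unadjusted p = 0.10, adjusted p = 0.890). Of all transcripts tested alone, 11.7% had libraries that did not overlap between diets and 6.04% had an unadjusted p under 0.05.

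An annotation with these symbols exists for the assembly O_niloticus_UMD_NMBU, in an NCBI gene table that matched 4 of the 7 apolipoprotein names. There apoeb, apoc1, apoa2 and apoc2 are 4 neighbouring genes in a row. Apoa4b.2 and apoea are also listed there, and none of the 7 gene IDs carries those names. The deposited tables give no positions, and their build is not given in the sources used here. Between the numbers of the 3 transcripts of this gene ID, 5 transcript numbers appear in neither table; those transcripts were not analysed here.

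APOH encodes a plasma glycoprotein that, in mammals, binds negatively charged phospholipids and is found on several lipoprotein classes. Its gene ID (MSTRG.33226) was at 236, 521 and 262 FPKM in HFD 1, 2 and 3, against 228, 49.1 and 369 FPKM in NFD 1, 2 and 3. HFD 2 was the highest and NFD 2 the lowest of the 6, and the diets overlapped. The means were 339 ± 158 FPKM in HFD and 215 ± 160 FPKM in NFD, with a log2 fold change of 0.98 ± 0.78 SE (limma, unadjusted p = 0.251, adjusted p = 0.919). Without NFD replicate 2 the log2 fold change was 0.13. It was 1.23 without NFD replicate 1 and 1.58 without NFD replicate 3 (limma, unadjusted p = 0.0825 for the latter).

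Both APOH transcripts with values had their own course. ENSONIT00000008169 was at 195, 449 and 216 FPKM in HFD 1, 2 and 3, against 153, 9.52 and 193 FPKM in NFD 1, 2 and 3. All HFD libraries were above all NFD libraries, although HFD 1 was only just above NFD 3. Of all transcripts tested alone, 11.7% had libraries that did not overlap between diets. The log2 fold change of ENSONIT00000008169 was 2.0 ± 1.15 SE (limma, unadjusted p = 0.132, adjusted p = 0.902). ENSONIT00000008167 was at 40.8, 71.3 and 46.3 FPKM in HFD 1, 2 and 3, against 75.2, 39.6 and 176 FPKM in NFD 1, 2 and 3. Its libraries overlapped and its log2 fold change was -0.65 ± 0.56 SE (unadjusted p = 0.288 in limma). The first transcript therefore made up 82.7%, 86.3% and 82.3% of APOH FPKM in HFD 1, 2 and 3, against 67.0%, 19.4% and 52.4% in NFD 1, 2 and 3. These shares did not overlap between diets, and how often that held for other genes was not counted. The split of FPKM between transcripts of 1 gene is an estimate of the authors' software, and its error is not given. The remaining APOH transcript was listed at 0 throughout.

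**Figure D3:**
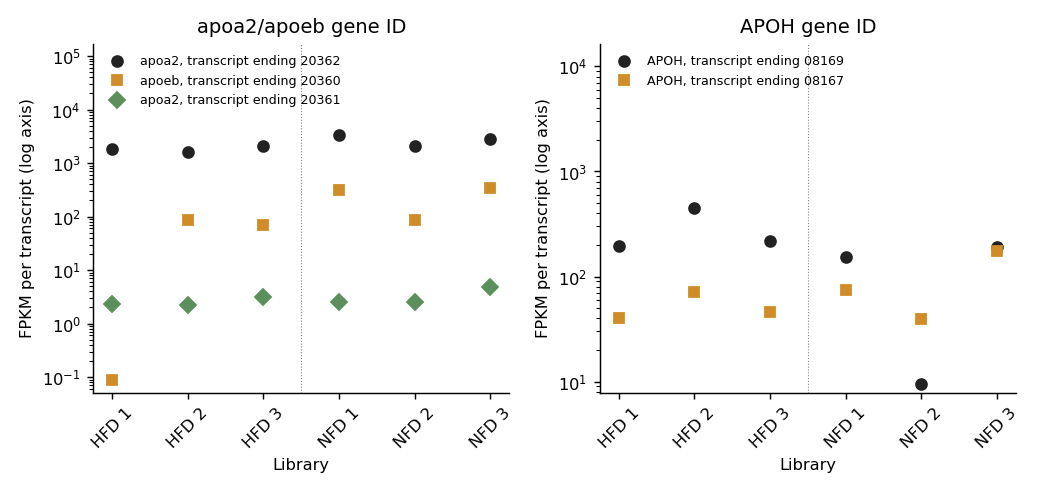
FPKM per transcript (log axis) in each library, HFD left of NFD, for the apoa2/apoeb gene ID and the APOH gene ID; transcripts listed at 0 throughout are not drawn. The apoeb point of HFD 1 lies at 0.0866 FPKM, and in NFD 2 the usual order of both APOH transcripts is reversed, at 9.52 and 39.6 FPKM.

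Apoa1b is a fish copy of apolipoprotein A1, the main protein of high-density lipoprotein and the activator of the cholesterol-esterifying enzyme lcat. It was at 60.9, 65.3 and 95.6 FPKM in HFD 1, 2 and 3, against 61.2, 79.1 and 73.5 FPKM in NFD 1, 2 and 3. HFD 3 was the highest and the other libraries of both diets were interleaved. The means were 73.9 ± 18.9 FPKM in HFD and 71.3 ± 9.18 FPKM in NFD, a log2 fold change of 0.03 ± 0.25 SE (limma, unadjusted p = 0.902, adjusted p = 0.998). The 95% interval ran from -0.58 to 0.64. The whole range over the 6 libraries was 1.57-fold, the narrowest among the 7 gene IDs.

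Apof is, in humans, an inhibitor of the cholesteryl ester transfer protein, which swaps lipid between lipoprotein classes. It was at 93.6, 108 and 0.475 FPKM in HFD 1, 2 and 3, against 102, 72.9 and 0.394 FPKM in NFD 1, 2 and 3. Each diet had 2 libraries between 72.9 and 108 FPKM and 1 library below 0.5 FPKM, with a gap of 153-fold and no library in between. The low library was number 3 in both diets. Its rank among gene IDs was between 161 and 212 in the 4 high libraries, and 9037 in HFD 3 and 9822 in NFD 3.

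Diet did not separate the apof values. The means were 67.4 ± 58.4 FPKM in HFD and 58.5 ± 52.3 FPKM in NFD, and the log2 fold change was 0.19 ± 2.51 SE (limma, unadjusted p = 0.942, adjusted p = 0.999). With both libraries numbered 3 left out, a choice made after seeing the data, it was 0.22 ± 0.36 SE (limma, unadjusted p = 0.563). Its sign depended on which library was kept: it was -0.87 without HFD replicate 1, -0.98 without HFD replicate 2 and -2.01 without NFD replicate 3, against 2.42 without HFD replicate 3.

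The spread of apof between libraries of 1 diet was wider than that of 99.9% of the tested genes, at 3.84 on the log2 scale against a median of 0.32. Such gaps were uncommon among genes that were abundant by their median. Of 835 tested genes with a median of at least 10 FPKM, 29 (3.47%) had a library more than 50-fold below their median, a rule set after apof had been seen. In HFD 3 only 3 genes were this low and in NFD 3 only 8, and apof was the single gene low in exactly these libraries. The uptake gene lrp1ab had a like split, at 1.29 FPKM in HFD 1 and 0.710 in NFD 3, against 66.7 to 104 FPKM elsewhere. The rule leaves out genes that were low in most libraries, such as fgb, high only in NFD 1 and NFD 3. The share of 3.47% therefore does not count every gene with such a gap. The apof gene ID has 1 transcript in the table. The 2 transcript numbers before it and the 2 after it appear in neither table and were not analysed here. Such gaps are common: of the numbers up to 78588, 25415 are absent in this way, and apoa1b also has 2 just after it. Whether reads of apof were counted under another transcript in those libraries was not tested.

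**Figure D4:**
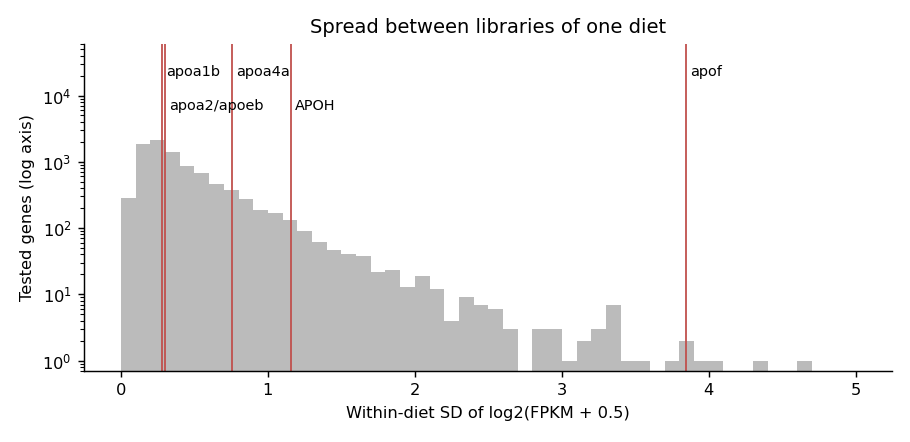
Histogram of the within-diet SD of log2(FPKM + 0.5) for the 9204 tested genes (count on a log axis), with the 5 tested apolipoprotein gene IDs marked by red lines. Apoa1b (0.28) and apoa2/apoeb (0.30) lie below the median of 0.32, and apof (3.84) lies in the far tail.

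APOH, at 1.16, had a wider within-diet spread than 94.9% of the tested genes. The first apoa4a gene ID, at 0.75, was above 85.3% of them. Apoa2/apoeb and apoa1b were in the middle of the distribution, above 46.0% and 41.7% of the genes.

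Apoa4a belongs to a kind that, in mammals, is made mainly by the intestine during fat absorption and can also be made by a fat-laden liver. The gene ID MSTRG.13420 was at 0.413, 0.659 and 0.534 FPKM in HFD 1, 2 and 3, against 2.20, 0.406 and 3.10 FPKM in NFD 1, 2 and 3. NFD 1 and NFD 3 were above every other library, and NFD 2 was the lowest of all. Its log2 fold change was -1.0 ± 0.51 SE, with a 95% interval from -2.24 to 0.24 (limma, unadjusted p = 0.0958, adjusted p = 0.888). Without NFD replicate 2 it was -1.60 ± 0.23 SE (limma, unadjusted p = 0.000768, adjusted p = 0.294, the lowest of a range that reached 1.000 over the alternatives). Without NFD replicate 3 it was -0.60 (limma, unadjusted p = 0.263). The second gene ID, ENSONIG00000013741, was at 0.191, 0.0899 and 0.189 FPKM in HFD 1, 2 and 3, against 0.558, 0.123 and 0.0313 FPKM in NFD 1, 2 and 3. It was too low to be tested. The table marks both as 1 of many copies of that name, so reads could be split between them.

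Apoba, a fish copy of apolipoprotein B, was below the filter on low values. It was at 0.269, 1.22 and 0.395 FPKM in HFD 1, 2 and 3, against 0.308, 1.39 and 0.241 FPKM in NFD 1, 2 and 3. Library 2 of each diet was the highest and the 4 others were below 0.5 FPKM, so it was not tested. Its rank by mean was 8354 of 26490 gene IDs. Other gene IDs whose names begin with apo but are of other kinds, 9 in all, were also low. The highest single value was 2.38 FPKM, for apopt1, a mitochondrial protein, at 2.33 ± 0.0956 FPKM in HFD and 2.06 ± 0.279 FPKM in NFD. The mitochondrial membrane protein apoob was at 0.639 ± 0.254 FPKM in HFD and 0.603 ± 0.102 FPKM in NFD. These 2 were tested, and neither had an unadjusted p under 0.05 in limma (0.400 and 0.899).

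Likeness between genes was measured by Pearson's r of log2(FPKM + 0.5) over the 6 libraries, against 1198 named genes with a mean of at least 5 FPKM, as a description. All genes of a library share its depth and composition, and high values of r are easily reached with 6 points. For apoa2/apoeb the 5 most alike genes were pfdn2, ap2s1/ENSONIG00000025072, fgb, rps27l and gpr1 (r between 0.920 and 0.963). The fibrinogen chain fgb was at 0.958, 1.18 and 1.03 FPKM in HFD 1, 2 and 3, against 3857, 0.835 and 3101 FPKM in NFD 1, 2 and 3. The libraries NFD 1 and NFD 3 also held the highest levels of apoeb and of the apoa4a gene ID MSTRG.13420. The second apoa4a gene ID was highest in NFD 1, at 0.558 FPKM, but lowest in NFD 3, at 0.0313 FPKM. For APOH the most alike were hs3st3b1a, hsd11b1la, rbm26, GRAMD2B and gstk4 (r between 0.947 and 0.971). For apoa1b they were sesn1, ndufb4, fabp1a, tubb1 and aox6 (r between 0.877 and 0.954), and fabp1a, the liver fatty acid-binding protein, was at 468, 448 and 895 FPKM in HFD 1, 2 and 3, against 277, 587 and 594 FPKM in NFD 1, 2 and 3.

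Apof was added to this search after its values were seen. Its most alike genes were tspan11, p4hb, f2rl2, rad23aa and mccc2 (r between 0.845 and 0.926). P4hb, a disulfide isomerase that is also a subunit of the lipid-loading complex of apolipoprotein B, was at 73.5, 65.9 and 21.5 FPKM in HFD 1, 2 and 3, against 113, 141 and 25.5 FPKM in NFD 1, 2 and 3. P4hb was lowest in library 3 of each diet, by far less than apof. It was picked for its likeness to apof over the same libraries, so this course is built into the choice.

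Around the apolipoproteins, 41 tested genes of lipoprotein assembly, remodelling, uptake, efflux and transcriptional control were set in the same fit. In limma, 8 of the 41 had an unadjusted p under 0.05, beside 6.02% over all genes, and 0 passed after adjustment. In HFD 18 were higher and 23 lower, and the median log2 fold change was -0.05. The libraries did not overlap between diets for 9 of the 41, beside 11.6% over all genes. Among the genes in both counts, lipg reached 0.5 FPKM only in NFD libraries, and lrp2a and angptl4 only in HFD libraries. They passed the filter only through the diet where they were high, so their presence in these counts is partly built in. How many of all genes entered the fit this way was not counted. The list was also chosen with earlier results of these data known, so its counts beside those of all genes are a description only.

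Remodelling enzymes and their inhibitors held 4 of these 8 (of 9 tested, 3 higher and 6 lower, median -0.36), beside 6.02% over all genes. Of the 4, lipg and angptl4 entered the fit only through the diet where they were high, so this count is partly built in. Angptl4, an inhibitor of lipoprotein lipase, was at 2.33, 0.524 and 1.1 FPKM in HFD 1, 2 and 3, against 0.432, 0.0979 and 0.0478 FPKM in NFD 1, 2 and 3 (limma, unadjusted p = 0.0192, adjusted p = 0.745). All its HFD libraries were above all its NFD libraries, where 11.6% of all genes tested did not overlap between diets. The endothelial lipase lipg was at 0, 0.168 and 0.418 FPKM in HFD 1, 2 and 3. In NFD 1, 2 and 3 it was at 1.71, 2.15 and 2.18 FPKM. Its log2 fold change was -1.89 ± 0.26 SE (limma, unadjusted p = 0.000281, adjusted p = 0.235). All its HFD values were below 0.5 FPKM, so this size depends on the pseudocount. Lipoprotein lipase itself, lpl, was at 15.8 ± 4.66 FPKM in HFD and 5.47 ± 2.30 FPKM in NFD. Its log2 fold change was 1.49 ± 0.40 SE (limma, unadjusted p = 0.0093, adjusted p = 0.708).

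Among 7 tested genes of assembly and secretion, 4 were higher and 3 lower, with a median of 0.26. SURF4, in mammals a cargo receptor that carries lipoproteins out of the endoplasmic reticulum, was at 8.81, 9.89 and 4.86 FPKM in HFD 1, 2 and 3, against 14.4, 26.7 and 16.1 FPKM in NFD 1, 2 and 3 (limma, unadjusted p = 0.0123, adjusted p = 0.708). The diets did not overlap for SURF4, which also held for 11.6% of all genes tested. Mttp, which loads lipid onto apolipoprotein B, was at 4.91, 16.6 and 5.34 FPKM in HFD 1, 2 and 3, against 5.04, 6.43 and 3.98 FPKM in NFD 1, 2 and 3, with overlap. The coat GTPase sar1ab was at 2.33 ± 0.0503 FPKM in HFD and 1.40 ± 0.953 FPKM in NFD. Pla2g12b, needed for normal lipoprotein secretion in mouse and zebrafish, was at 0.909 ± 0.570 FPKM in HFD and 0.400 ± 0.225 FPKM in NFD.

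Of 11 receptors and uptake genes, 5 were higher and 6 lower, with a median of -0.00089. The endocytic receptor lrp2a was at 0.726, 1.29 and 1.08 FPKM in HFD 1, 2 and 3, against 0.199, 0.262 and 0.104 FPKM in NFD 1, 2 and 3 (limma, unadjusted p = 0.00155, adjusted p = 0.417). Its partner in mammals, cubn, which binds apolipoprotein A1, was at 1.08, 0.494 and 0.729 FPKM in HFD 1, 2 and 3, against 1.20, 1.55 and 1.3 FPKM in NFD 1, 2 and 3 (limma, unadjusted p = 0.0406, adjusted p = 0.826). Neither overlapped between diets, beside 11.6% of all genes tested, and no value of either was above 1.55 FPKM. Lrp2a reached 0.5 FPKM only in HFD libraries, so it entered the fit through the diet where it was high. The high-density lipoprotein receptor scarb1 was at 0.849 ± 0.624 FPKM in HFD and 2.30 ± 0.975 FPKM in NFD, and vldlr at 0.837 ± 0.278 FPKM in HFD and 0.487 ± 0.356 FPKM in NFD.

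Among the 4 tested efflux genes, the sterol exporter abcg5 had a log2 fold change of -1.14 ± 0.22 SE (limma, unadjusted p = 0.00175, adjusted p = 0.448). ABCA1, which hands cholesterol to apolipoprotein A1, was at 0.862 ± 0.215 FPKM in HFD and 0.512 ± 0.171 FPKM in NFD. The gene ID abca1a/stra6l was at 14.2 ± 2.39 FPKM in HFD and 17 ± 8.89 FPKM in NFD. Abcg8, the partner of abcg5, was at 2.02 ± 1.08 FPKM in HFD and 4.02 ± 1.24 FPKM in NFD.

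None of the 10 tested transcription factors had an unadjusted p under 0.05, and 5 were higher and 5 lower. The 4 with the smallest p were nr2f2, nr1h4, foxa3 and cebpb. The bile acid receptor nr1h4 was at 1.99, 7.01 and 0.118 FPKM in HFD 1, 2 and 3, against 2.83, 5.58 and 3.41 FPKM in NFD 1, 2 and 3. The orphan receptor nr2f2 was at 2.44 ± 1.21 FPKM in HFD and 1.37 ± 0.443 FPKM in NFD, and foxa3, a liver-enriched factor, at 22.0 ± 6.31 FPKM in HFD and 25.9 ± 4.62 FPKM in NFD. Cebpb was at 89.7 ± 35.8 FPKM in HFD and 106 ± 25.1 FPKM in NFD.

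**Figure D5:**
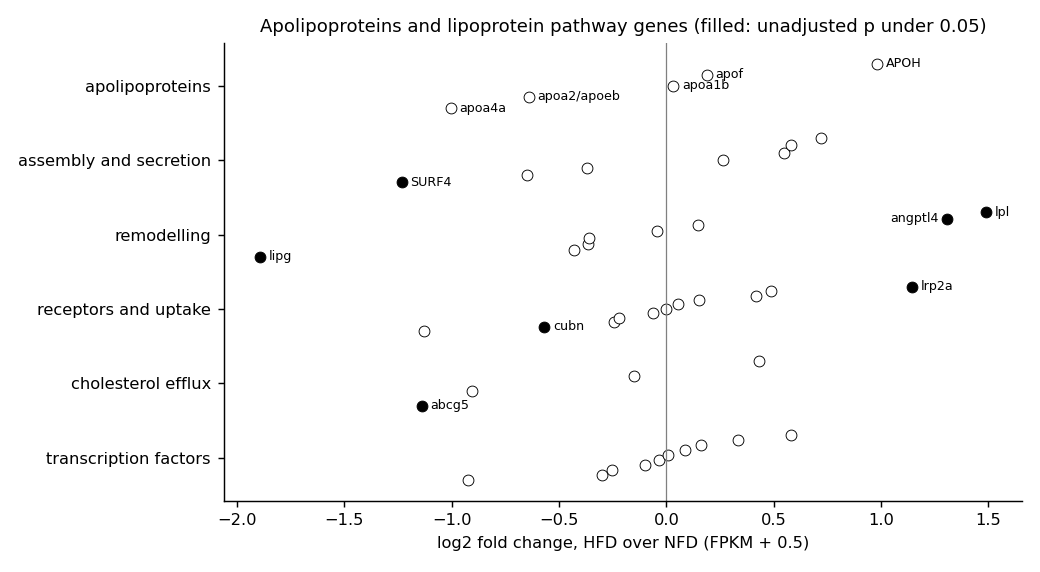
Log2 fold change of HFD over NFD for the 5 tested apolipoprotein gene IDs and 40 of the 41 tested lipoprotein pathway genes by role; filled points have an unadjusted p under 0.05 in limma. The 7 filled points lie between -1.89 (lipg) and 1.49 (lpl), and each apolipoprotein point is open.

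Of the 19928 lncRNA transcripts of the second table, 0 carry the gene ID of an apolipoprotein gene, so no lncRNA could be set beside one by gene ID.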

How the data were processed

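The deposited values are FPKM per transcript in 6 libraries, per the file headers; 33245 transcripts are in the mRNA table. The tools listed in the submitters' processing notes, without roles, are StringTie 1.3.0, HISAT2 2.0.4, edgeR 3.22.3, FastQC 0.10.1 and cutadapt 1.10; neither build nor strand setting is given in the sources used here. Values of 0.0001 or less were set to 0, and transcripts were summed per gene ID. Genes with at least 0.5 FPKM in 3 libraries were fitted on log2(FPKM + 0.5) with limma 3.58.1 in R 4.3.3 (eBayes with a variance trend, diet as the only term, two-sided, Benjamini-Hochberg over 9204 genes, threshold 0.05). The fit was tested on simulated data. The recovery of changes as small as those found here is not given, so the absence of adjusted calls does not mean that no gene changed. The apolipoproteins and lists were chosen with earlier results of these data known. All 7 gene IDs are named, with up to 4 pathway genes per role by smallest p. Of those, 1 gene is not reported here, though it is in the counts. For likeness, the 5 genes of highest r were named for the 3 most abundant tested gene IDs, and apof was added after its values were seen. Genes ranked beside a gene ID are the nearest named ones. A listed symbol also matched its a and b duplicates. Alternatives were pseudocounts of 0.1 and 1, 2 filters, trimmed-mean centring (0.3 trimmed from each end), quantile normalization, no variance trend, each transcript alone, a replicate block and leaving out libraries. The lncRNA model was not needed. Figures were drawn with matplotlib 3.10.9.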

Additional observations from a re-analysis of the deposited data

How the results depend on the processing

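The count of genes past an adjusted p of 0.05 was 0 in limma and between 0 and 4 with each library left out, the 4 without NFD replicate 2. The count of apolipoprotein gene IDs with an unadjusted p under 0.05 was 0, and 1 with the filter on mean FPKM, 1 without the variance trend and between 0 and 2 with each library left out. Over all genes it was 402 of 6519 with that filter and 550 of 9204 without the trend. Without NFD replicate 2, where the 2 fell, it was 538 of 8685. The pathway count of 8 became 5 with the filter on mean FPKM, which also left fewer genes in the fit. The sign turned for the APOH transcript ENSONIT00000008167 tested alone (-0.65). For apoa1b it turned without HFD replicate 3 (-0.17), without NFD replicate 1 (-0.07) and with both libraries numbered 3 left out (-0.14). With each library left out, apoa1b ranged from -0.17 to 0.16 and apof from -2.01 to 2.42, including -0.87 and -0.98 without HFD replicate 1 and 2; the cause was not tested. The share of summed FPKM kept its direction, from -0.95 to -0.38 percentage points. Same-numbered libraries did not deviate together (r = -0.0052, -0.20 and -0.11 for numbers 1, 2 and 3), and no library correlated best with its own number. With the replicate block, 412 genes had an unadjusted p under 0.05 against 554 without it, 0 genes passed adjustment, 0 apolipoprotein and 9 pathway genes had an unadjusted p under 0.05, and apof had 0.19 ± 0.26 SE (limma, unadjusted p = 0.510). Quantile normalization and trimmed-mean centring turned no sign of the 5 gene IDs. Depth in reads is unknown, which limits what can be said of levels below 1 FPKM.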
